A study of Mus musculus with 12 samples.

Results

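Matrix metalloproteinases (MMPs), ADAMs, ADAMTS and ADAMTS-like proteins, and tissue inhibitors of metalloproteinases (TIMPs) were followed by their RNA in the fibrocartilage on the mandibular condyle, the lower bone surface of the jaw joint. Members were the rows of the count table whose symbol consists of Mmp, Adam, Adamts, Adamtsl or Timp, a number and at most 1 further letter. There were 83 such genes among 23284. All animals were female C57BL/6 mice that had been ovariectomized at 16 weeks of age and were sampled at 17 weeks, after 1 week with a pellet under placebo or estradiol. The 4 groups were ERalphaKO mice, which lack estrogen receptor alpha, under estradiol (KO E2, n = 3), ERalphaKO mice under placebo (KO Plb, n = 4), wild-type mice under estradiol (WT E2, n = 3) and wild-type mice under placebo (WT Plb, n = 2). Every group was thus without ovaries, and the E2 pellet held 0.01 mg of 17β-estradiol for release over 60 days. The RNA came from all cells of the tissue without sorting, so a lower level can stand for fewer cells of a type or for less RNA per cell, and these cannot be told apart. The labels do not say whether each library came from a separate animal, so p-values measure the spread between these libraries, which may be technical.

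The MMPs are zinc-dependent endopeptidases that are made as inactive precursors and, once activated, cut collagens, proteoglycans and other matrix proteins. ADAMs sit in the cell membrane, where many of them release growth factors, cytokines and receptors from the cell surface, while the related ADAMTS enzymes are secreted and include the aggrecanases, which cut the large cartilage proteoglycan aggrecan, and the procollagen N-proteinases, which trim collagen precursors. TIMPs bind the active site of MMPs and, in the case of TIMP3, also that of several ADAM and ADAMTS enzymes. In cartilage the balance of these proteases and inhibitors is known for its part in matrix turnover and in joint disease.

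The libraries held 9696434 to 28750636 counts, and the 83 members together took 1.37% to 1.76% of them. Esr1, the gene of estrogen receptor alpha, was lower in all 7 ERalphaKO libraries than in all 5 WT libraries. It had 5.66, 5.78 and 4.55 CPM (counts relative to a scaled library total of 1000000) in KO E2 and 3.65, 5.68, 4.03 and 5.15 CPM in KO Plb, against 10.6, 8.52 and 12.04 CPM in WT E2 and 17.5 and 14.2 CPM in WT Plb. Its genotype difference under placebo passed the test used throughout, edgeR's quasi-likelihood test with Benjamini-Hochberg adjustment over all 14832 genes tested and a threshold of 0.05 (log2 fold change -1.77 ± 0.20 SE, adjusted p = 0.0252, and 0.690 without WT Plb replicate 1). Under E2 its adjusted p was 0.0549. The sources used here do not say which part of the gene was deleted. All 12 markers fixed for chondrocytes and fibrocartilage were present in every library, with summed levels of 38278 to 64858 CPM. The largest part of each sum was Col1a1 (27000 to 43590 CPM), which is also a marker fixed for osteoblasts. The sum therefore says little about the cartilage genes, of which Col2a1 had 1156 to 14780 CPM and Chad 247 to 2364 CPM. Markers of granulocytes and skeletal muscle varied by a larger factor between libraries. The 14 granulocyte markers summed to 14.7 to 6891 CPM in KO E2, 26.4 to 17104 CPM in KO Plb, 2.78 to 1143 CPM in WT E2, and 68.0 and 845 CPM in WT Plb. The 19 skeletal muscle markers summed to 19.3 to 76.8 CPM in KO E2, 22.1 to 7824 CPM in KO Plb, 297 to 1585 CPM in WT E2, and 16.3 and 3244 CPM in WT Plb.

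Of the 83 members, 55 passed the filter on low counts and were tested. The other 28 reached at most 72 counts summed over the 12 libraries (Adam32), and 10 of them had no count in any library, namely Adam24, Adam25, Adam26a, Adam26b, Adam29, Adam34, Adam39, Adam6a, Adam7 and Mmp1b. Of the 20 ADAMs known mainly from testis, 3 were tested, against 11 of 12 somatic ADAMs and all 15 members in the classes of hyalectanases, procollagen N-proteinases and ADAMTS-like proteins. A count of 0 does not show absence, since 3 counts, taken here as the lower limit of detection, correspond to 0.110 to 0.315 CPM depending on the library, and this limit covers counting error only. Among the tested members 51 averaged at least 1 CPM and 14 at least 100 CPM. A few genes carried the family: Mmp2 held 20.7% of all family counts, Mmp13 18.4%, Timp2 16.3%, Mmp9 14.35%, Timp3 9.14% and Mmp14 7.10%. These 6 genes together made up 83.3% to 87.6% of the family counts in each library.

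To compare levels between genes, CPM were divided by the length of merged exons, which was available for all 83 members. On this per-kilobase scale the highest mean over the 12 libraries was that of Mmp13, collagenase-3, which cuts fibrillar collagen and is a product of hypertrophic chondrocytes and osteoblasts (1074 CPM per kb). Mmp2, gelatinase A, which degrades denatured collagen, followed with 965 CPM per kb. The inhibitor Timp2, which also takes part in the activation of pro-MMP2, had 659.0 CPM per kb, and Mmp9, gelatinase B, known in bone as an osteoclast product, had 632 CPM per kb. Timp1 (282 CPM per kb), the membrane-bound activator of pro-MMP2 Mmp14 (186) and Timp3 (173) formed the next step. All other members averaged 30.2 CPM per kb or less.

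The levels within each class were also steep. Among somatic ADAMs the highest per-kilobase means were those of Adam10, the sheddase of Notch receptors (30.2 CPM per kb), Adam9 (26.2) and Adam15 (16.4). Adam12 (meltrin alpha), a protease of muscle and skeletal progenitors, stood at 15.01 and Adam17, the sheddase of TNF and of EGF receptor ligands, at 13.5 CPM per kb. Among the hyalectanases, the ADAMTS enzymes that cut aggrecan and versican, Adamts5 (6.02 CPM per kb), Adamts9 (5.39) and Adamts1 (5.12) led, and of the procollagen N-proteinases Adamts2 had 25.5, Adamts14 5.88 and Adamts3 4.11 CPM per kb. Of the other classes, Adamts10 (19.6), Adamts18 (14.9) and Adamts7 (3.25) led the remaining ADAMTS genes. Adamtsl4 (17.0) led the ADAMTS-like genes ahead of Adamtsl5 (2.66) and Adamtsl3 (0.838). Mmp3, stromelysin-1 (20.9), led the class of stromelysins, matrilysin and elastase ahead of Mmp11 (5.79) and Mmp12 (0.399). Mmp23 (28.1) led the remaining MMPs ahead of Mmp19 (5.34) and Mmp28 (2.77). Mmp8 averaged 26.4 CPM per kb. Of the membrane-type MMPs after Mmp14, Mmp16 averaged 4.10 and Mmp15 1.38 CPM per kb. The testis-type ADAMs Adam5 (0.983), Adam1a (0.602) and Adam4 (0.261 CPM per kb) were all low. Counts of Adam1a, Adam8, Adam15, Adam17, Adam19, Adamts4, Adamts7, Adamts8, Adamts9, Mmp11, Mmp12, Mmp19, Mmp28, Timp3 and Timp4 are less certain, because parts of their exons are shared with other genes in the annotation, whereas Adam12 and Adamts5 have no such overlap. Neighbours in this order often did not differ beyond their spread. As a measure of spread, the coefficient of variation (CV) of the CPM over the 12 libraries was 4.41% for Adam17, 6.34% for Adam10, 8.18% for Adam9, 9.69% for Mmp23 and 12.3% for Mmp13, while it reached 60.0% for Mmp3, 63.7% for Adam33, 92.2% for Adamts8, 112% for Adam8, 169% for Mmp25 and 189.7% for Mmp8. Adamts20 (132%) and Timp4 (201%) were also high, at average levels under 1 CPM.

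**Figure D1:**
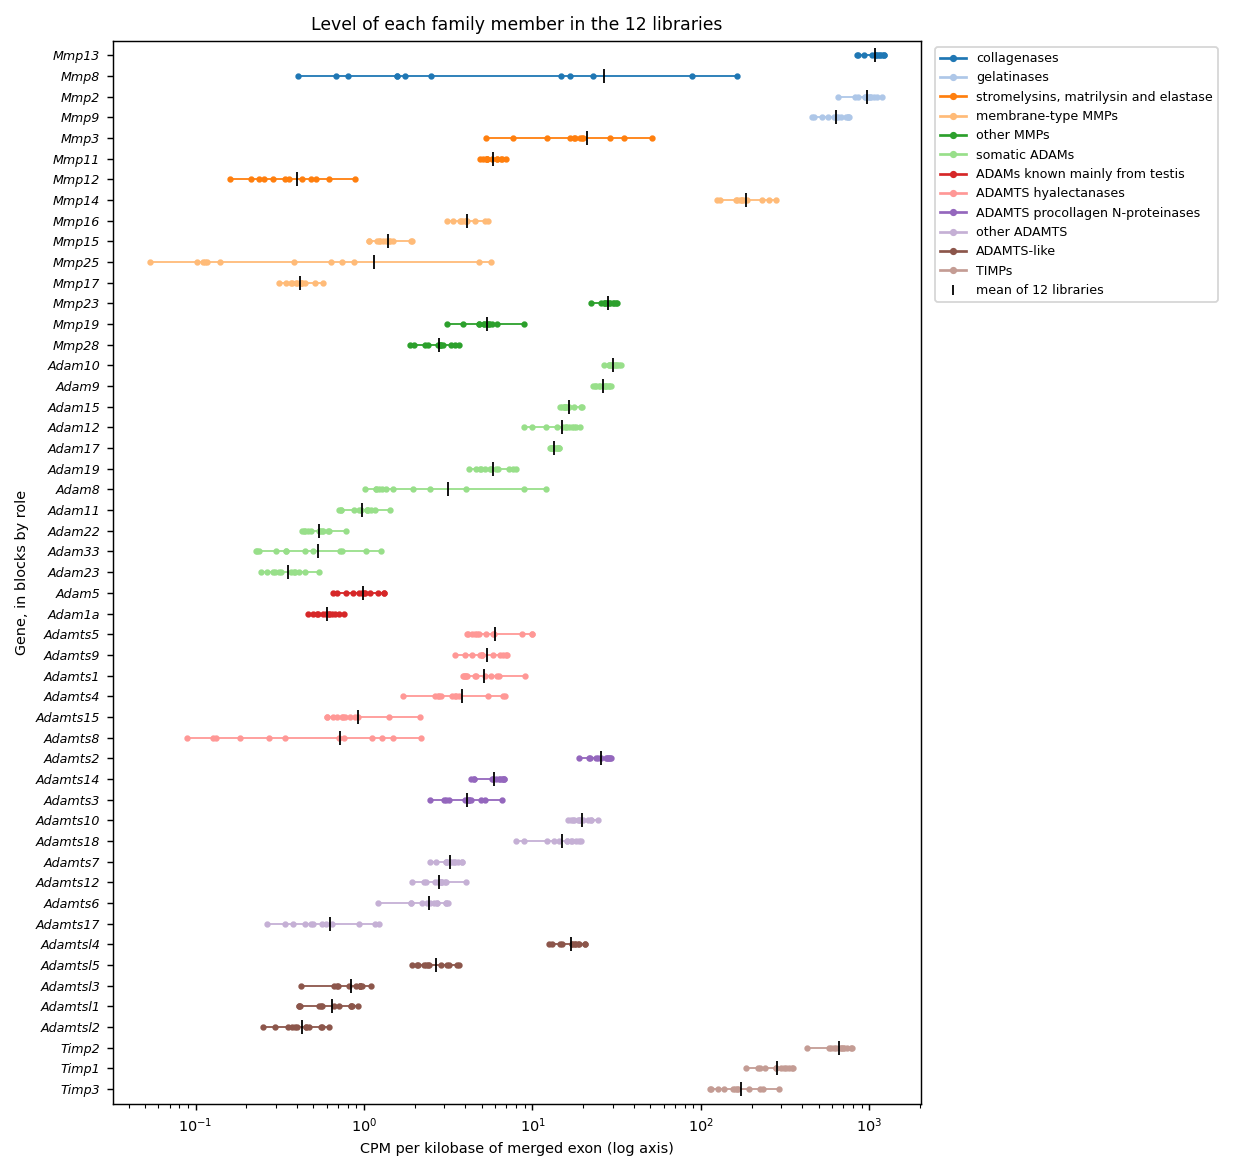
Level of the 51 members that averaged at least 1 CPM, as CPM per kilobase of merged exon on a log axis, with 1 point per library, a line over the range and a black tick at the mean of the 12 libraries; rows run in blocks by role, coloured as in the legend. Mmp13, Mmp2, Timp2 and Mmp9 lie highest, and the points of Mmp8, Mmp25 and Adamts8 are spread widest.

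The promoters of the most expressed collagenase and of stromelysin-1 are shown because a site for the transcription factor AP-1 is known from genes of this group, and because other family promoters can be compared with them. RefSeq promoter windows of build GRCm38.p6, from 250 bases before to 50 bases after the start site, were matched for 52 of the 83 members, giving 57 windows. The first line is the window of Mmp13 at chr9:7272264-7272563 and the second that of Mmp3 at chr9:7445572-7445871, both on the plus strand and written 5′ to 3′, with the AP-1 motif (TGACTCA on either strand) in capitals.
Mmp13: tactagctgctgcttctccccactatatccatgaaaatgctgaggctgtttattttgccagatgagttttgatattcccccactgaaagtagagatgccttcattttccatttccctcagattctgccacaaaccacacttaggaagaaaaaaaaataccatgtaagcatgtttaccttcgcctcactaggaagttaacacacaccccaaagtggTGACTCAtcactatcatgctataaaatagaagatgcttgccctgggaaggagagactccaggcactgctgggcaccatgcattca
Mmp3: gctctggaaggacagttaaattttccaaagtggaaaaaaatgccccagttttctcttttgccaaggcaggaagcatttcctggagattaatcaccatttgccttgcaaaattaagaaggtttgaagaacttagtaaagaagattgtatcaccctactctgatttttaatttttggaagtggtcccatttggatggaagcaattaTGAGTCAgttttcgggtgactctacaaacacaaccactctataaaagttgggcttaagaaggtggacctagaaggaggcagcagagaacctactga
The motif began at position -35 from the start site in Mmp13 and at position -46 in Mmp3. It was present in 10 member windows, those of Adam19, Adam1b, Adam29, Mmp10, Mmp12, Mmp13, Mmp1a, Mmp1b, Mmp3 and Mmp7, which is 17.5% of member windows against 5.20% of all 32851 windows. Among these genes, Adam1b, Adam29, Mmp10, Mmp1a, Mmp1b and Mmp7 did not pass the filter on low counts. They had at most 29 counts summed over all libraries (Mmp10), so much of this share concerns genes hardly counted in this tissue. The letters TATAAA occurred in 26.3% of member windows against 13.6% of all windows, and GGGCGG in 47.4% against 35.7%, again on either strand. The full consensus palindrome of an estrogen response element was in 0 member windows and in 23 of the 32851 windows. Adam12 and Adamts5, the members called below for E2, are not among the matched genes, so neither was searched. Of the AP-1 group, Mmp13 varied little between libraries and Mmp3 widely, with values given below.

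E2 in WT mice was followed by a higher level of the aggrecanase Adamts5 and a lower level of the sheddase Adam12, and by no other call in the family. Counting both directions, 2 of 55 tested members passed the adjusted threshold, which is 3.64%, beside 0.458% of all genes tested. By direction, 1 member was higher, against 0.371% of all genes, and 1 was lower, against 0.0876%. At an unadjusted p under 0.05 there were 4 members (7.27%), Adamts5, Adam12, Adamts17 and Adam33, beside 8.14% of all genes, so that the share at this looser level was near the background. The groups did not overlap for 12 members (21.8%), beside 26.9% of all genes. The median log2 fold change of the 55 members was -0.07, against -0.00 for all genes.

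Markers of other cells also differed in level between these groups in part of their lists, without reaching the adjusted threshold. Of 12 macrophage markers tested, 8 had an unadjusted p under 0.05 in edgeR, beside the 8.14% of all genes, 11 had a positive log2 fold change, the median was 0.91 and 0 passed the adjusted threshold. Their summed level was 1016 to 1486 CPM in WT E2, against 1136 and 848 CPM in WT Plb, and none was at 0 in any library. Of 9 adipocyte markers tested, 6 had an unadjusted p under 0.05, 0 passed the adjusted threshold and the median was -3.74, with sums of 7.11 to 16.9 CPM in WT E2, against 17.7 and 95.4 CPM in WT Plb. Skeletal cell markers differed in part as well. Of 11 osteoblast and osteocyte markers, 4 had an unadjusted p under 0.05, 6 had a positive log2 fold change and the median was 0.02. Of 12 chondrocyte and fibrocartilage markers, 3 had an unadjusted p under 0.05, 6 had a positive log2 fold change and the median was 0.15. In both lists 0 passed the adjusted threshold. The part of these cells in the Adamts5 and Adam12 differences was not tested.

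Adamts5, the main aggrecanase of mouse cartilage, had 108, 93.6 and 107 CPM in the WT E2 libraries, against 57.0 and 48.9 CPM in WT Plb. All 3 WT E2 libraries stood above both WT Plb libraries. The mean was 103 ± 8.02 CPM in WT E2 (SD, n = 3) and 52.9 ± 5.69 CPM in WT Plb (SD, n = 2), a 1.94-fold rise by edgeR's test (log2 fold change 0.96 ± 0.17 SE, adjusted p = 0.0437). In mice without the receptor it had 50.5, 63.5 and 44.9 CPM in KO E2, against 62.5, 44.2, 52.3 and 47.1 CPM in KO Plb. These ERalphaKO groups overlapped throughout (log2 fold change 0.04 ± 0.14 SE, adjusted p = 1 by edgeR), and all 7 libraries lay below every WT E2 library.

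Adam12 had 127, 104 and 93.6 CPM in the WT E2 libraries, against 167 and 185 CPM in WT Plb. Every WT E2 library stood below both WT Plb libraries. The mean was 108 ± 16.8 CPM in WT E2 (SD, n = 3) and 176 ± 13.3 CPM in WT Plb (SD, n = 2), a 1.63-fold fall by edgeR's test (log2 fold change -0.70 ± 0.12 SE, adjusted p = 0.0437). In ERalphaKO mice it had 202, 183 and 192 CPM in KO E2, against 159.7, 175, 148 and 167 CPM in KO Plb. Here the KO E2 libraries all stood above those of KO Plb, but the difference did not pass (log2 fold change 0.24 ± 0.10 SE, edgeR adjusted p = 0.848).

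Both calls for E2 in WT sat close to the threshold. Adamts5 kept its call in 3 of 12 fits that each left out 1 library, those without WT E2 replicate 2, KO Plb replicate 1 or KO E2 replicate 2, and its adjusted p by edgeR ran from 0.0348 to 0.489. Adam12 kept its call in 2 of 12 such fits, those without WT E2 replicate 1 or KO Plb replicate 3, with an adjusted p from 0.0241 to 0.466. With the mean skeletal muscle marker level as a covariate, the edgeR adjusted p of Adam12 was 0.0606. With only the WT groups in the fit, it was 0.315 for Adam12 and 0.0977 for Adamts5. The direction held in all 12 fits without 1 library for both genes, with log2 fold changes of 0.85 to 1.07 for Adamts5 and -0.83 to -0.61 for Adam12. In the authors' deposited table for WT E2 over WT Plb, Adamts5 (log2 fold change 0.94, adjusted p = 3.88e-10) and Adam12 (-0.68, adjusted p = 0.00324) passed as well.

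Adamts17 and Adam33 followed in order of p. Adamts17, whose human counterpart is known from a short-stature syndrome with eye defects, had 9.53, 7.25 and 9.06 CPM in WT E2, against 3.46 and 3.74 CPM in WT Plb. In the ERalphaKO groups it had 4.64, 2.63 and 4.40 CPM under E2, against 2.93, 3.88, 2.05 and 4.99 CPM under placebo. The 3 WT E2 libraries were the highest of all 12, yet the edgeR test did not pass (log2 fold change 1.26 ± 0.36 SE, adjusted p = 0.274). DESeq2 gave an adjusted p of 0.0384, and the authors' deposited table one of 1.94e-04. Adam33, known from human studies of the airway, had 6.82, 4.001 and 5.53 CPM in WT E2, against 1.23 and 2.42 CPM in WT Plb. It stood at 1.87, 3.89 and 1.28 CPM in KO E2, against 1.62, 1.85, 2.67 and 1.25 CPM in KO Plb. Again WT E2 held the 3 highest libraries, with an edgeR adjusted p of 0.377 (log2 fold change 1.56 ± 0.50 SE) and an adjusted p of 0.0235 in the authors' deposited table. That table had 4 of 55 members past 0.05, namely these 4 genes, beside 1.75% of all genes in it.

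**Figure D2:**
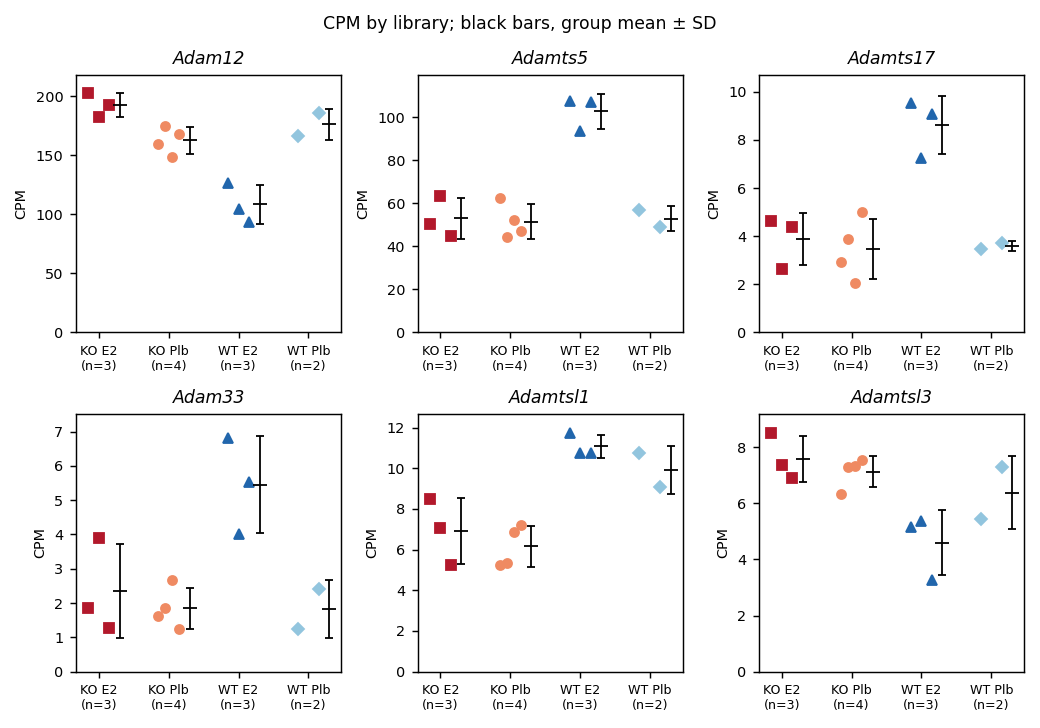
CPM of Adam12, Adamts5, Adamts17, Adam33, Adamtsl1 and Adamtsl3 in each library, with KO E2 (n = 3), KO Plb (n = 4), WT E2 (n = 3) and WT Plb (n = 2) from left to right; the black bar beside each group is its mean ± SD. Adamts5 averaged 103 CPM in WT E2 and between 51.5 and 53.0 CPM in the other groups, whereas Adam12 averaged 108 CPM in WT E2 and between 162 and 192 CPM in the others.

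In ERalphaKO mice no member passed the test for E2. The same was true of the whole table, in which 0% of genes passed in either direction. At an unadjusted p under 0.05 edgeR found 3 members, Adam12, Mmp16 and Mmp23 (5.45%, beside 5.70% of all genes), and DESeq2 called 0 members at its adjusted threshold. The groups did not overlap for 3 members (5.45%, beside 5.67% of all genes), which were Adam12, Adamts2 and Adamtsl5. Mmp16, a membrane-bound MMP, had 47.1, 34.8 and 45.1 CPM in KO E2, against 34.9, 39.7, 26.8 and 34.9 CPM in KO Plb, with overlap between the groups (log2 fold change 0.32 ± 0.14 SE). Mmp23 had 70.8, 74.7 and 63.0 CPM in KO E2, against 52.2, 62.1, 64.7 and 63.1 CPM in KO Plb, and here too the groups overlapped (log2 fold change 0.20 ± 0.09 SE). Adamts2, the main N-proteinase of type I procollagen, had 275, 258 and 269.6 CPM in KO E2, against 203, 254, 206 and 238 CPM in KO Plb, with all 3 KO E2 libraries above (log2 fold change 0.25 ± 0.13 SE, edgeR adjusted p = 0.908). In this contrast 17 of 18 skeletal muscle markers tested had an unadjusted p under 0.05 (median log2 fold change -5.82), beside 5.70% of all genes. So had 5 of 13 granulocyte markers (median -1.66). The part of these cells in the values was not tested. In the authors' deposited table for KO E2 over KO Plb, 0 of 72 members passed, beside 0.0494% of all genes.

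Whether E2 acted differently in the genotypes was tested directly, as the E2 effect in ERalphaKO minus that in WT. No member passed, beside 0.0539% of all genes in either direction, 0.00674% higher and 0.0472% lower. At an unadjusted p under 0.05 there were 4 members (7.27%, beside 6.78% of all genes), Adam12, Adamts5, Mmp23 and Adamts17. For Adam12 the difference was 0.95 ± 0.16 on the log2 scale (edgeR adjusted p = 0.0801). For Adamts5 it was -0.92 ± 0.22 (edgeR adjusted p = 0.334). The outcome depended on the tool, since DESeq2 called both, with adjusted p = 1.69e-05 for Adam12 and 0.0224 for Adamts5. Adam12 also passed in edgeR without WT E2 replicate 1 (adjusted p = 0.0428) and with the mean granulocyte marker level as a covariate, while Adamts5 passed in none of the 12 fits without 1 library (0.182 to 0.827). Mmp23 (0.36 ± 0.14) and Adamts17 (-1.08 ± 0.46) did not pass by either tool.

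Under placebo the genotypes differed in no called member. Of all genes tested, 0% were called higher and 0.0135% lower in KO Plb than in WT Plb. At an unadjusted p under 0.05 edgeR found 5 members (9.09%, beside 8.93% of all genes), while DESeq2 called 0 members at its adjusted threshold. The groups did not overlap for 15 members (27.3%, beside 21.1% of all genes), and the median log2 fold change of the family was -0.12, against 0.01 for all genes. Adamtsl1, also called punctin, which resembles ADAMTS proteins but lacks the protease domain, had 5.27, 5.32, 6.86 and 7.20 CPM in KO Plb, against 10.7 and 9.09 CPM in WT Plb (log2 fold change -0.68 ± 0.20 SE, edgeR adjusted p = 0.396). Every KO Plb library was below both WT Plb libraries. Mmp14 had 959.5, 975, 1022 and 1039.8 CPM in KO Plb, against 1658 and 1364 CPM in WT Plb, again without overlap (log2 fold change -0.60 ± 0.22 SE, edgeR adjusted p = 0.484). In the authors' deposited table for KO Plb over WT Plb, Mmp14 was the 1 member of 56 past 0.05 (log2 fold change -0.58, adjusted p = 5.85e-05), beside 1.82% of all genes. Mmp23 had 52.2, 62.1, 64.7 and 63.1 CPM in KO Plb, against 70.5 and 73.7 CPM in WT Plb (log2 fold change -0.25 ± 0.10 SE). Adam11 had 5.92, 4.15, 4.03 and 5.27 CPM in KO Plb, against 8.04 and 6.19 CPM in WT Plb (-0.55 ± 0.23). Adam19, meltrin beta, was on the other side, with 56.6, 51.4, 44.4 and 39.6 CPM in KO Plb, against 37.1 and 29.9 CPM in WT Plb (0.52 ± 0.21). In none of these genes did the groups overlap. Adamts5 (-0.04 ± 0.16) and Adam12 (-0.12 ± 0.12) gave estimates close to 0 under placebo, with edgeR adjusted p = 0.965 and 0.822. Of 10 lymphocyte markers tested 8 had an unadjusted p under 0.05 in this contrast (median log2 fold change 5.57), beside 8.93% of all genes, with sums of 124 to 218 CPM in KO Plb, against 11.3 and 14.7 CPM in WT Plb. An unadjusted p under 0.05 was also reached by 5 of 13 granulocyte markers (median 5.22) and 3 of 9 adipocyte markers (median -0.85). The part of these cells in the values was not tested.

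Under E2 the genotypes differed in the same pair of genes, with Adam12 higher and Adamts5 lower in KO E2 than in WT E2. This comparison uses the WT E2 libraries that also enter the E2 effect in WT, so it is no separate evidence. Of 55 members 1 was higher, beside 0.452% of all genes, and 1 was lower, beside 0.647%, or 3.64% of members in either direction beside 1.10% of all genes. Adam12 averaged 192 ± 9.83 CPM in KO E2 and 108 ± 16.8 CPM in WT E2 (SD, n = 3 each), 1.78-fold higher (log2 fold change 0.83 ± 0.11 SE, edgeR adjusted p = 0.00583). The call was kept in all 12 fits that left out 1 library (adjusted p 0.00318 to 0.0334) and lost with only the groups compared in the fit (0.0523). Adamts5 averaged 53.0 ± 9.52 CPM in KO E2 and 103 ± 8.02 CPM in WT E2 (SD, n = 3 each), 1.95-fold lower (log2 fold change -0.96 ± 0.15 SE, edgeR adjusted p = 0.0138). It was kept in 8 of 12 such fits and lost without KO E2 replicate 1 (adjusted p = 0.0783), KO E2 replicate 3 (0.0724), WT E2 replicate 1 (0.0649) or WT E2 replicate 3 (0.0516). The groups did not overlap for either gene.

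Marker levels of other cells were set beside this contrast too. Of 12 macrophage markers 7 had an unadjusted p under 0.05 in edgeR (median log2 fold change -0.84), beside 11.5% of all genes, and 2 had a positive estimate. Their sums were 852 to 1868 CPM in KO E2, against 1016 to 1486 CPM in WT E2. The highest sum, in KO E2 replicate 1, held 1098 CPM of Lyz2, against 214 and 326 CPM of it in KO E2 replicates 2 and 3. An unadjusted p under 0.05 was also reached by 7 of 12 chondrocyte and fibrocartilage markers (median -0.58). Their sums were 51621 to 59127 CPM in KO E2, against 48197 to 63625 CPM in WT E2, and Cilp, a cartilage matrix protein, was called lower. It was reached as well by 8 of 10 lymphocyte markers tested (median 4.12), with sums of 15.8 to 158 CPM in KO E2, against 12.003 to 21.0 CPM in WT E2. Of 18 skeletal muscle markers tested, 4 had an unadjusted p under 0.05, 0 had a positive estimate and the median was -4.02. The 19 listed summed to 19.3 to 76.8 CPM in KO E2, against 297 to 1585 CPM in WT E2, without overlap. Of 8 osteoclast markers tested, 3 had an unadjusted p under 0.05, and the median was 0.17. Of 11 osteoblast and osteocyte markers, 6 had an unadjusted p under 0.05, and the median was 0.05. Sost, 1 of these markers, was called lower, with 68.2, 89.8 and 44.5 CPM in KO E2, against 362, 162 and 296 CPM in WT E2. The part of these cells in the Adam12 and Adamts5 differences was not tested.

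At an unadjusted p under 0.05, 14 members (25.5%) differed between the genotypes under E2, beside 11.5% of all genes, and the groups did not overlap for 10 members (18.2%, beside 15.9% of all genes). The next members by p were Adamts17 and Adamtsl3. Adamts17 had 4.64, 2.63 and 4.40 CPM in KO E2, against 9.53, 7.25 and 9.06 CPM in WT E2 (log2 fold change -1.13 ± 0.31 SE, edgeR adjusted p = 0.144 and DESeq2 adjusted p = 0.0268). Adamtsl3, a further ADAMTS-like protein, had 8.49, 7.36 and 6.90 CPM in KO E2, against 5.17, 5.37 and 3.28 CPM in WT E2 (0.72 ± 0.20, edgeR adjusted p = 0.153 and DESeq2 adjusted p = 0.0441). Both lay without overlap, and neither passed in edgeR. Adamtsl1 had 8.49, 7.04 and 5.26 CPM in KO E2, against 11.7, 10.7 and 10.8 CPM in WT E2 (-0.68 ± 0.19, edgeR adjusted p = 0.162), a difference of about the size seen under placebo. In the authors' deposited table for KO E2 over WT E2, 4 of 51 members passed, namely Adam12 (0.83, adjusted p = 2.05e-07), Adamts5 (-0.94, adjusted p = 1.47e-07), Adamts17 (-1.06, adjusted p = 0.00404) and Adamts9 (0.58, adjusted p = 0.0348), beside 3.75% of all genes.

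Among the 7 hyalectanases, Adamts5 was the 1 member that passed in any contrast. Under E2 their genotype estimates were negative for 6 of 7 members, with a median log2 fold change of -0.82 against -0.00 for all genes. Of these 6, Adamts20 was near the limit of detection, with means of 0.117 CPM in KO E2 and 0.263 CPM in WT E2. Adamts8 overlapped between the groups, with 5.12, 0.841 and 0.613 CPM in KO E2, against 9.99, 3.53 and 3.28 CPM in WT E2. An unadjusted p under 0.05 in edgeR was reached by 4 of 7, beside 11.5% of all genes, namely Adamts5, Adamts4 and Adamts15 with negative estimates and Adamts9 with a positive one. Adamts4, known as aggrecanase-1, had 8.19, 16.7 and 16.1 CPM in KO E2, against 33.2, 26.3 and 12.8 CPM in WT E2, with overlap between the groups (-0.82 ± 0.36, edgeR adjusted p = 0.424). Adamts15 had 7.65, 7.99 and 9.10 CPM in KO E2, against 22.1, 14.5 and 6.25 CPM in WT E2 (-0.79 ± 0.35). WT E2 replicate 3 lay below all KO E2 libraries in the case of Adamts15. Adamts9, which cuts versican and aggrecan, was the exception in sign, with 97.2, 105 and 75.1 CPM in KO E2, against 73.1, 51.9 and 60.0 CPM in WT E2 and no overlap (0.58 ± 0.19, edgeR adjusted p = 0.222). Adamts9 shares 1381 exonic bases with a gene on the opposite strand, and as the sources leave the strand of the libraries unstated, their counts cannot be told apart. For E2 in WT, 4 of the 7 had positive estimates, with a median of 0.27.

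The collagenase Mmp13 and the gelatinases gave no call in any of the 5 contrasts. Mmp13 had 2246, 2769.6 and 3033 CPM in KO E2, against 2289.9, 2967, 2922 and 2499 CPM in KO Plb. It had 3259, 2901 and 3082 CPM in WT E2, against 3274 and 3198 CPM in WT Plb (log2 fold change -0.07 ± 0.15 SE for E2 in WT). All KO Plb libraries were below both WT Plb libraries (-0.28 ± 0.14, edgeR adjusted p = 0.611). Mmp2 had 3264, 3420.5 and 3441 CPM in KO E2, against 3172, 3189.8, 2895 and 3371 CPM in KO Plb. Its levels in WT were 2774, 3734 and 2201 CPM under E2, against 3997 and 3586 CPM under placebo, with overlap because of WT E2 replicate 2 (-0.39 ± 0.18, edgeR adjusted p = 0.623). Mmp9 had 2634, 1621 and 2678 CPM in KO E2, against 1662, 2237, 2301 and 2017 CPM in KO Plb, and 2408, 1845 and 2654 CPM in WT E2, against 2585 and 2187 CPM in WT Plb. Its groups overlapped in all 4 group comparisons. Osteoclast markers, of which 8 of 10 were in the table, summed to 5895 to 7919 CPM in KO E2, 5414 to 7604 CPM in KO Plb, 5622 to 6849 CPM in WT E2, and 6847 and 7366 CPM in WT Plb. Their part in the Mmp9 level was not tested.

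Mmp3 was among the members that varied most within groups. It had 9.58, 32.1 and 34.4 CPM in KO E2, against 30.2, 22.0, 31.8 and 35.2 CPM in KO Plb. It had 92.9, 51.9 and 13.8 CPM in WT E2, against 62.8 and 35.8 CPM in WT Plb. Within WT E2 the highest library thus exceeded the lowest by more than any group mean differed from another, and no contrast passed (E2 in WT 0.10 ± 0.66, genotype under E2 -1.06 ± 0.60).

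The inhibitors Timp1, Timp2, Timp3 and Timp4 passed in none of the 5 contrasts. Timp1, a soluble inhibitor, had 214, 248 and 307 CPM in KO E2, against 164, 264, 198 and 247 CPM in KO Plb. It had 311, 298 and 193 CPM in WT E2, against 285 and 275 CPM in WT Plb (log2 fold change -0.07 ± 0.24 SE for E2 in WT). Timp2 had 2399, 2709 and 2857 CPM in KO E2, against 2460.0, 2654, 2250.5 and 2750.2 CPM in KO Plb, and 2316, 3077 and 1666 CPM in WT E2, against 3018 and 2652 CPM in WT Plb (-0.27 ± 0.21). In both genes WT E2 replicate 3 was the lowest library of its group. Timp3, the matrix-bound inhibitor, had 1354, 1255 and 1338 CPM in KO E2, against 918, 1303, 1025 and 1579 CPM in KO Plb. It had 929, 1899 and 2370.3 CPM in WT E2, against 1123 and 1823 CPM in WT Plb (0.23 ± 0.36), a wide range within each WT group. Timp3 shares 1733 of its 8144 exonic bases with Syn3 on the opposite strand, whose reads cannot be told apart here. Timp4 was at or near the limit of detection, with at most 1.16 CPM (KO Plb replicate 3) and with 0 counts in 6 of 12 libraries, and no fold is given for it.

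**Figure D3:**
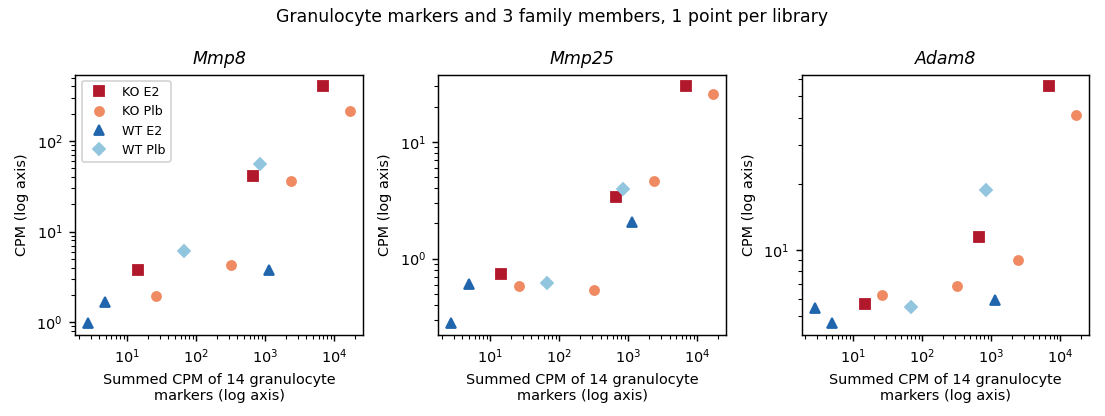
CPM of Mmp8, Mmp25 and Adam8 in each library against the summed CPM of the 14 granulocyte markers, both on log axes, with 1 point per library and the groups KO E2, KO Plb, WT E2 and WT Plb by symbol. KO E2 replicate 1 and KO Plb replicate 3 lie at the top right in all 3 panels, with Mmp8 at 399.5 and 216 CPM.

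Mmp8, neutrophil collagenase, and 2 further leukocyte genes, Mmp25 (leukolysin) and Adam8, varied more between single libraries than between groups. Mmp25 and Adam8 were chosen after their values were seen. Mmp8 had 399.5, 3.78 and 40.7 CPM in KO E2, against 4.25, 1.94, 216 and 36.0 CPM in KO Plb, and 1.66, 0.989 and 3.79 CPM in WT E2, against 55.3 and 6.04 CPM in WT Plb. Mmp25 reached 29.9 CPM in KO E2 replicate 1 and 25.6 CPM in KO Plb replicate 3, and at most 4.63 CPM in the other 10 libraries. Adam8 reached 55.5 and 41.0 CPM in the same libraries and at most 18.8 CPM elsewhere. The same libraries had the highest sums of granulocyte markers, 6891 CPM in KO E2 replicate 1 and 17104 CPM in KO Plb replicate 3. The match was not complete, because WT E2 replicate 3 had a marker sum of 1143 CPM with 3.79 CPM of Mmp8. At the other end, 6 of the 14 markers were at 0 in WT E2 replicate 1 and 5 in WT E2 replicate 2 and in KO E2 replicate 2. The genotype difference of Mmp8 under E2 had a log2 fold change of 6.12 ± 2.12 SE and did not pass in edgeR (adjusted p = 0.275), whereas DESeq2 gave 0.0120. For this contrast the authors' deposited table gave fold changes but no p-values for Mmp8, Mmp25 and Adam8. The part of granulocytes in these values was not tested gene by gene. For Adam12 and Adamts5 all calls in edgeR were the same with the mean granulocyte marker level as a covariate, apart from the genotype difference of the Adam12 response given above. With the mean skeletal muscle marker level in its place, the Adam12 call for E2 in WT was lost (adjusted p = 0.0606).

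Among genes that activate, clear or inhibit the proteases, 31 of 34 listed were tested, and A2m was the 1 gene called in any contrast. Of all genes, 0.371% were called higher for E2 in WT. By genotype, 0.0135% were called lower under placebo and 0.647% under E2. A2m, alpha-2-macroglobulin, a broad-range trap for proteases, had 2.71, 1.89 and 1.12 CPM in KO E2, against 1.85, 2.03, 0.852 and 1.97 CPM in KO Plb. It had 137, 130.3 and 163 CPM in WT E2, against 21.7 and 18.5 CPM in WT Plb. All WT libraries stood far above all ERalphaKO libraries, and within WT those under E2 stood above those under placebo. By edgeR it rose with E2 in WT (log2 fold change 2.84 ± 0.32 SE, adjusted p = 0.00394, and 0.0935 and 0.103 without WT Plb replicate 1 or 2). It was lower in ERalphaKO under placebo (-3.59 ± 0.29, adjusted p = 0.00179) and under E2 (-6.24 ± 0.34, adjusted p = 1.63e-05), calls that were kept in all 12 fits without 1 library. The E2 effect on A2m in ERalphaKO was 0.18 ± 0.33, and the difference between genotypes did not pass (-2.65 ± 0.44, edgeR adjusted p = 0.0782). The median log2 fold change of the list was -0.10 for the E2 effect in WT and -0.03 for KO E2 over WT E2.

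Of 22 other matrix proteases 19 were tested, and under E2 1 was higher and 1 lower in KO E2 than in WT E2, beside 0.452% and 0.647% of all genes. Pappa, the protease of insulin-like growth factor binding proteins, had 45.4, 30.2 and 41.3 CPM in KO E2, against 15.5, 11.96 and 18.3 CPM in WT E2 (log2 fold change 1.36 ± 0.27 SE, edgeR adjusted p = 0.0396). Htra3, a secreted serine protease, had 139.5, 200.1 and 159.1 CPM in KO E2, against 341, 297 and 254 CPM in WT E2 (-0.84 ± 0.17, edgeR adjusted p = 0.0458). The groups did not overlap in either gene. Without 1 library, Pappa kept its call in 3 of 12 fits (0.00792 to 0.157; without KO Plb replicate 1, KO Plb replicate 3 or KO E2 replicate 2) and Htra3 in 2 of 12 (0.0359 to 0.199; without KO Plb replicate 3 or KO E2 replicate 2). Of 25 ligands and receptors that ADAMs are known to release, 20 were tested. Of these 1 was called, lower in KO E2 than in WT E2, beside 0.647% of all genes. Csf1, the macrophage growth factor, whose membrane form ADAM17 can release, had 133, 133 and 144 CPM in KO E2, against 265, 181 and 288.5 CPM in WT E2 (-0.84 ± 0.15, edgeR adjusted p = 0.0277, kept in 7 of 12 fits and lost without KO E2 replicate 1, 2 or 3 or WT E2 replicate 1 or 3). For E2 in WT it gave 0.74 ± 0.17 (edgeR adjusted p = 0.144).

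Of 30 matrix substrates 28 were tested and none passed in any contrast, although edgeR gave an unadjusted p under 0.05 for 8 of them in the E2 contrast of WT and 13 in the genotype contrast under E2, beside 8.14% and 11.5% of all genes. The most counted were the genes of type I collagen. Col1a2 averaged 35618 ± 2383 CPM in WT E2 and 47454 ± 2239 CPM in WT Plb (log2 fold change -0.41 ± 0.16 SE), and Col1a1 30024 ± 1683 CPM in WT E2 and 42114 ± 601 CPM in WT Plb (-0.49 ± 0.17). In ERalphaKO mice Col1a1 averaged 41186 ± 2093 CPM under E2 and 35004 ± 6159 CPM under placebo (0.23 ± 0.14). Of 22 cytokines and transcription factors known to induce the proteases, 19 were tested and none passed in edgeR. Runx2, a factor known to drive Mmp13, averaged 307 ± 26.3 CPM in KO E2, 299 ± 36.0 CPM in KO Plb, 405 ± 55.0 CPM in WT E2 and 361 ± 22.2 CPM in WT Plb. Hif1a averaged 242 ± 37.7 CPM in KO E2, 248.5 ± 44.5 CPM in KO Plb, 239 ± 31.7 CPM in WT E2 and 285 ± 1.28 CPM in WT Plb.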

How the data were processed

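Per the labels' protocols, polyadenylated RNA of all cells of the tissue was sequenced as 100-base reads. Per the submitters' processing notes, bcl2fastq 2.17 and TopHat were used, with mouse build mm9. Not given in the sources used here are the counting tool, its annotation and strand setting, and the handling of multi-mapping reads. The authors deposited a table of raw counts with 23284 gene symbols and 12 libraries, and comparison tables with log2 fold changes and p-values, used here as the authors' values.

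Genes passing edgeR's group-wise filter (minimum count 10) were tested: 14832. Library scaling was by TMM, and the fit was made in edgeR 4.0.16 (R 4.3.3, limma 3.58.1) with the quasi-likelihood test and 1 mean per group over all 12 libraries (8 residual degrees of freedom, biological coefficient of variation 25.9%). P-values were adjusted by Benjamini-Hochberg within each of 5 contrasts, and each SE was derived from the fold change and its F statistic. CPM use the same scaling without a prior count. The code was tested on simulated data. Exon lengths and overlaps came from GENCODE M21, which is not the authors' annotation. Related genes (Mmp1a and Mmp1b, Adam1a and Adam1b, Adam6a and Adam6b, Adam26a and Adam26b) may share reads, though their similarity was not measured.

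The members, gene lists, markers and tests were chosen with earlier results of these data known. Named with values were members past the threshold, the 4 with the smallest p in each contrast, the TIMPs, the leading members of each role by level, and, per pathway list, up to 4 called genes per contrast or else the 2 most counted. Other settings were DESeq2 1.42.0, median-of-ratios scaling, no filter, a minimum count of 50, only the groups compared, a replicate block, muscle or granulocyte marker level as a covariate, and leaving out each library. A fit of 9 libraries was added after seeing the data.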

Additional observations from a re-analysis of the deposited data

Results flagged for a closer look

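Dixon's test was applied only to the group of 4 KO Plb libraries, the largest group, so single libraries of the other groups were not examined this way. Among the 55 tested members, 6 had 1 KO Plb library far from the other 3, by a gap above the 95% critical value. Chance gives about 1 such flag in 20 groups. KO Plb replicate 3 was high for Mmp8 (216 CPM), Adam8 (41.0 CPM), Mmp25 (25.6 CPM) and Adamtsl5 (16.8 CPM). It also had the highest marker sums of all libraries for granulocytes (17104 CPM), skeletal muscle (7824 CPM) and macrophages (2704 CPM, of which Lyz2 1864 CPM). Its chondrocyte and fibrocartilage marker sum was the lowest of all libraries (38278 CPM). The part of any of these cells in the values was not tested. KO Plb replicate 1 was high for Adamts10 (183 CPM, with 141 to 145 CPM in the other KO Plb libraries) and for Adamts4 (17.0 CPM, with 13.2 to 13.8 CPM in the others).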

How the results depend on the processing

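The counts of called members changed with the tool and the samples in the fit. They are given without the share of all genes called in the same setting. They therefore do not compare the family with other genes. For E2 in WT, 1 member was called higher in edgeR, 2 by DESeq2 (with Adamts17), and 0 with only the 2 groups compared, with the replicate block or with 9 libraries (leaving out KO Plb 3, KO E2 1 and WT Plb 2). For E2 in WT, 1 member was called lower, and 0 with only the 2 groups compared, the replicate block, the skeletal muscle marker level as a covariate or 9 libraries. Without 1 library, each count was 0 to 1. For genotype under E2, 1 member was called higher, 3 by DESeq2 (with Adamtsl3 and Mmp8) and 0 with only the 2 groups compared, with 1 to 1 without 1 library. For the same contrast 1 was called lower, 2 by DESeq2, and 0 with the replicate block or 9 libraries, with 0 to 1 without 1 library. For the difference of the E2 effect, 0 were called in either direction, DESeq2 called 1 higher and 1 lower, the granulocyte covariate gave 1 higher, and fits without 1 library gave 0 to 1 higher. Fits with fewer libraries have fewer degrees of freedom; the cause of the other changes was not tested. The filters and median-of-ratios scaling changed none of these counts.

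The edgeR adjusted p of Adam12 for E2 in WT was 0.315 with only the 2 groups compared, 0.188 with the replicate block, 0.0606 with the muscle covariate and 0.373 with 9 libraries. That of Adamts5 was 0.0977 with only the 2 groups, 0.183 with the block and 0.470 with 9 libraries. For genotype under E2, Adam12 had 0.0523 with only the 2 groups, and Adamts5 had 0.0606 with the block and 0.106 with 9 libraries. The sign changed only for estimates near 0 that were not called. The genotype estimate of Adamts5 under placebo was 0.0275 with the replicate block and 0.00689 with the muscle covariate, and -0.146 to 0.0733 without 1 library (above 0 without WT Plb replicate 1, KO Plb replicate 2 or KO Plb replicate 4). The E2 estimate of Adamts5 in ERalphaKO was -0.0656 with the muscle covariate and -0.110 to 0.147 without 1 library (below 0 without KO Plb replicate 2, KO Plb replicate 4 or KO E2 replicate 2). The genotype estimate of Adam12 under placebo was 0.00555 with 9 libraries. Over the fold changes recomputed for named genes, 544 kept direction and side of the threshold, 85 no longer passed, 8 newly passed and 10 changed sign.

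The replicate numbers did not meet the criterion for pairing, every same-numbered pair correlating above 0.1 in its deviations from the group means. Of 15 such pairs 9 did (-0.30 to 0.54, median 0.22, against a median of -0.02 for other pairs), although the pairs among libraries numbered 2 all lay between 0.26 and 0.50. Calls lost under the block are not read as a weaker effect. With 2 to 4 libraries a group, changes smaller than those called may go undetected.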
